A study of Rattus norvegicus with 12 samples.

Results

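The genes described here are 10 of the 14217 genes that the platform annotation names on a rat expression array: the Wnt ligands Wnt4, Wnt5a and Wnt7a, the secreted inhibitors Sfrp1, Sfrp2, Sfrp4, Dkk3 and Wif1, and the Wnt targets Axin2 and Lef1. They were taken by gene symbol and are read by 19 probe sets, sets of short probes near the transcript's end, out of 31042 that are not controls. RNA came from neural stem cells (NSCs), dividing cells whose progeny can become neurons or glia. They came from Sprague Dawley rats aged 3 to 5 postnatal days and were measured on 12 Affymetrix Rat230_2 arrays in 4 groups of 3: differentiated spinal cord NSCs (SNSCfenhua in the titles), proliferative spinal cord NSCs (SNSC), differentiated brain NSCs (BNSCfenhua) and proliferative brain NSCs (BNSC). The series names proliferative and differentiated NSCs but no label ties a state to a title, so the state rests on reading fenhua as the romanised Chinese word for differentiation. No genotype or agent is labelled for any group, and the method and length of differentiation are not given in the sources used here. Whether a group's 3 arrays stand for separate animals or cultures is not stated, so the p-values cover the spread among these arrays alone, and that may be technical. In bulk RNA, fewer cells of a type and less RNA per cell cannot be told apart.

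Wnt proteins are secreted lipid-modified ligands that bind Frizzled receptors with LRP5 or LRP6 as co-receptors. In the canonical branch this stabilises beta-catenin, which enters the nucleus and turns on target genes together with the DNA-binding TCF/LEF factors. Secreted Frizzled-related proteins (the Sfrp family) and Wif1 bind Wnt proteins outside the cell, and in the developing central nervous system Wnt signals shape progenitor division, dorsal identity and the timing of oligodendrocyte maturation.

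Levels are MAS5 signals in log2 units, with SDs over the 3 arrays of a group, and array medians ran from 6.88 to 7.23. Across tested probe sets, which are not independent replicates, arrays of a group correlated at 0.940 to 0.975. Proliferative spinal cord replicate 1 stood furthest from its group, at 0.940 and 0.946 with replicates 2 and 3, which correlated at 0.972 with each other. Counts without that array are given beside the counts with it. The test took in probe sets lying above an array's 40th percentile (5.91 to 6.41) on 3 or more of the 12 arrays, and a group is called dim where all 3 of its arrays lay below it. Against a dim group a fold is written as "at least", measured from that group's mean 40th percentile. Adjusted p-values are limma's, over all 20834 probe sets tested, with a threshold of 0.05.

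Of the 19 probe sets 14 passed the filter, covering 9 of the 10 genes. The probe set of Wnt4 was below the 40th percentile on all 12 arrays and was not tested. Its highest values were 6.15 in differentiated and 6.2 in proliferative spinal cord NSCs, and 5.83 in differentiated and 5.08 in proliferative brain NSCs. A further Sfrp4 probe set (1388021_at) and 2 of the 4 Dkk3 probe sets (1394655_at and 1377468_at) were also below that percentile on every array, and the probe set 1370138_at of Lef1 was above it on 2 arrays. Of the tested ones, Sfrp4 passed through 6 spinal cord arrays and 1 brain array, and Dkk3 1397754_at only through the 3 proliferative spinal cord arrays. A tested probe set of this kind is likely to differ between groups because of the filter itself.

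The markers of other cell types differed between groups too. Of 8 genes of fibroblasts and meninges, all measured and tested, 8 were higher in spinal cord than in brain NSCs in each state. Their summed signal was 114273 to 130887 on differentiated and 29250 to 57131 on proliferative spinal cord arrays, and 4155 to 4563 on differentiated and 3438 to 6038 on proliferative brain arrays. Dcn, Lum, Ogn and Lox were dim in differentiated brain NSCs, and Lum and Ogn in proliferative ones. Of 7 neural progenitor markers 6 were measured, with summed signals of 16195 to 16658 in differentiated and 22540 to 23215 in proliferative spinal cord NSCs, and of 35792 to 42028 and 28502 to 34399 in the corresponding brain NSCs. Hes5 was the only progenitor marker called dim, in each group except differentiated brain NSCs.

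In spinal cord NSCs, differentiation went with higher Sfrp2, Sfrp4, Dkk3 and Axin2 and with lower Wnt7a, Lef1 and, on 1 of 3 probe sets, Sfrp1. Of the 14 member probe sets 5 rose (35.7%) and 4 fell (28.6%), where 18.3% of all probe sets tested rose and 22.0% fell. Their median log2 change was -0.39, against -0.05 over all probe sets tested. Without proliferative spinal cord replicate 1, 4 rose and 5 fell. Calls over all probe sets, 8396 with every array, ran from 6916 to 8666 as each array was left out in turn. In brain NSCs, differentiation went with higher Wnt7a, Sfrp2 and Dkk3 and with lower Sfrp1 and Sfrp4, the last on values near or below the 40th percentile. There 5 member probe sets rose (35.7%) and 3 fell (21.4%), against 23.7% and 23.1% of all probe sets, with a median of 0.04 against 0.0038. The 14 probe sets read 9 genes, so those of a gene are not separate evidence.

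**Figure D1:**
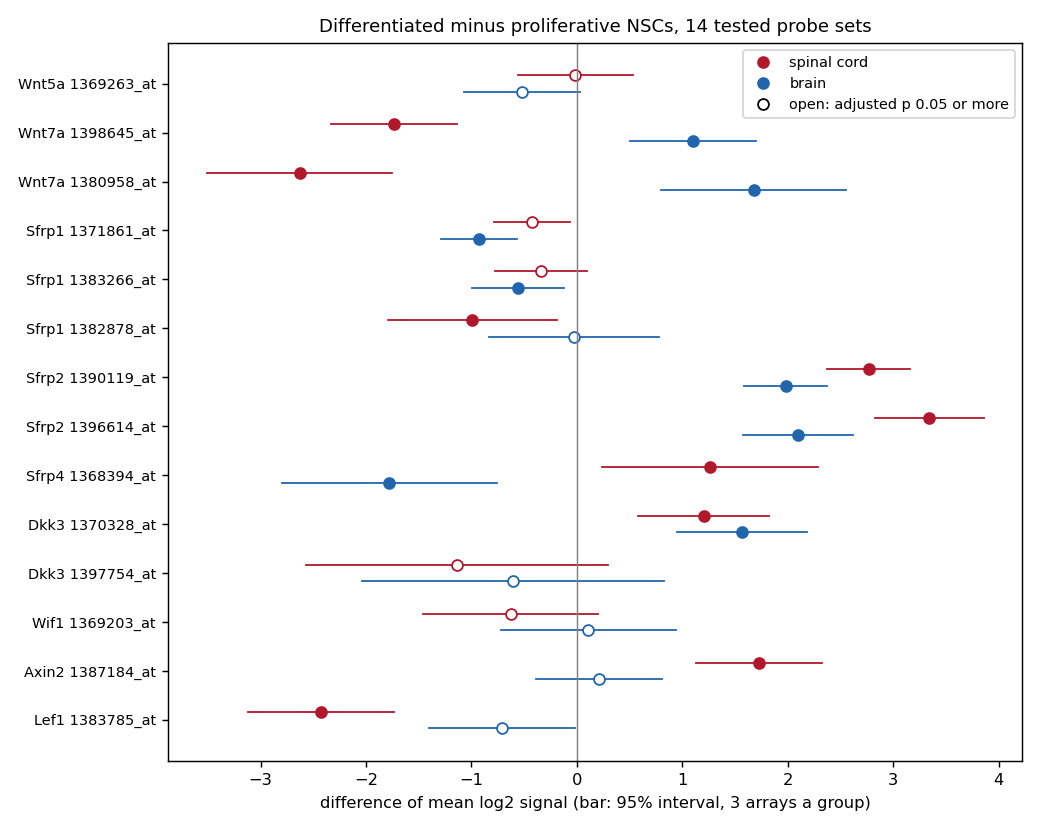
Difference of mean log2 signal between differentiated and proliferative NSCs for the 14 tested probe sets, in spinal cord (red, upper of each pair) and in brain (blue, lower). Bars are 95% intervals from the model over 12 arrays, filled points passed an adjusted p of 0.05, and both Wnt7a probe sets lie left of 0 in spinal cord and right of 0 in brain.

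Between the tissues, the inhibitors Sfrp2, Sfrp4 and Dkk3 and the ligand Wnt5a were higher in spinal cord NSCs in either state, and all 3 Sfrp1 probe sets were lower. Sfrp4 and Wif1 passed the filter mainly through spinal cord arrays, so their calls in the tissue counts add no support. Of the member probe sets, 6 were higher (42.9%) and 5 lower (35.7%) in differentiated spinal cord than in differentiated brain NSCs, against 18.5% and 22.9% of all probe sets. In the proliferative state 7 were higher (50.0%) and 3 lower (21.4%), against 19.4% and 18.5%. The medians were 0.48 and 0.79 in the differentiated and proliferative state, while those over all probe sets were -0.06 and -0.02. Without proliferative spinal cord replicate 1 the counts were 7 and 5 in the differentiated state and 7 and 3 in the proliferative state. The differentiation response itself was higher in spinal cord than in brain for 4 member probe sets (28.6%) and lower for 3 (21.4%), where 18.8% and 21.7% of all probe sets were, and for 4 and 5 without proliferative spinal cord replicate 1. Leaving that array out also raised the calls over all probe sets. They went from 8617 to 9424 in the differentiated and from 7877 to 8648 in the proliferative tissue contrast. For the response they went from 8434 to 9179. The comparisons of the states and of the tissues use the same 12 arrays and are not independent of each other.

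**Figure D2:**
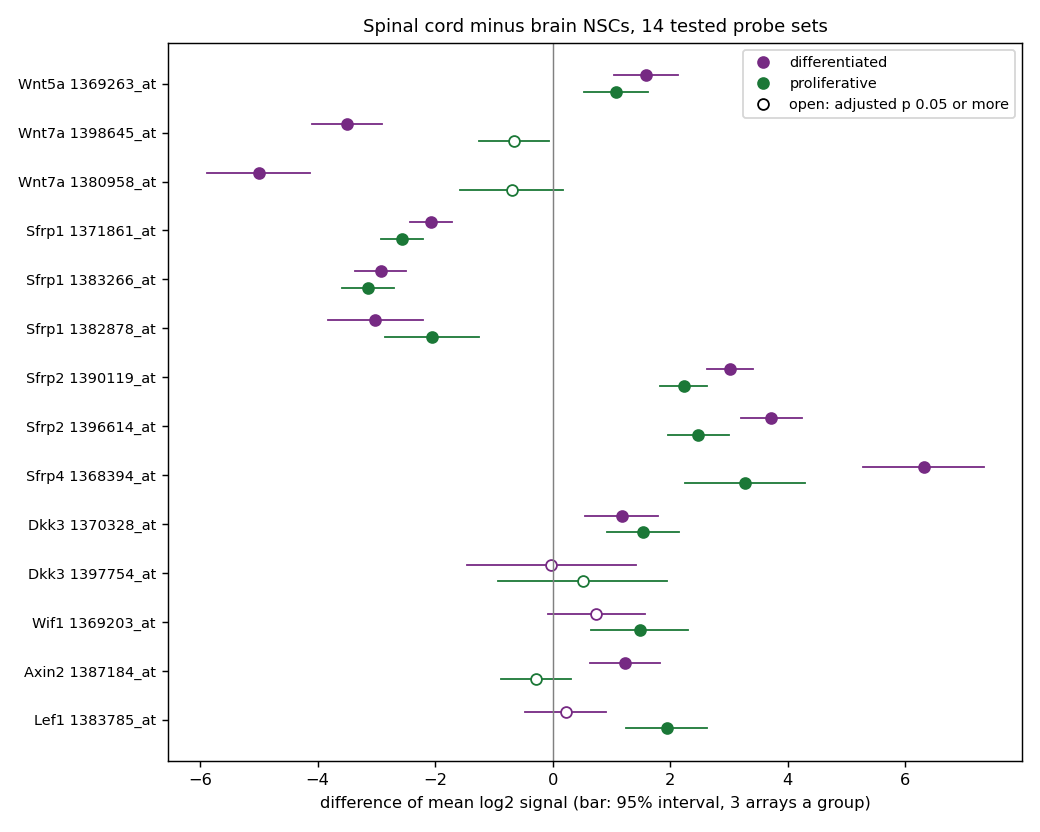
Difference of mean log2 signal between spinal cord and brain NSCs for the 14 tested probe sets, in the differentiated (purple, upper of each pair) and the proliferative state (green, lower). Bars are 95% intervals and filled points passed an adjusted p of 0.05, so that Sfrp1 lies left of 0 with all 3 probe sets in both states and Sfrp2 lies right of 0 with both of its probe sets.

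Among the ligands, Wnt7a, which drives canonical signalling in the embryonic forebrain and spinal cord and in oligodendrocyte precursors, had opposite responses in the tissues. On its brighter probe set, 1398645_at, the signals were 5.60, 6.81 and 6.96 in differentiated and 8.0, 8.26 and 8.31 in proliferative spinal cord NSCs. In brain NSCs they were 9.92, 9.94 and 9.99 in differentiated and 9.11, 8.79 and 8.65 in proliferative cells. The 4 groups did not overlap, with differentiated brain NSCs highest and differentiated spinal cord NSCs lowest. Wnt7a fell 3.33-fold with differentiation in spinal cord (log2 change -1.74 ± 0.28 SE, adjusted p = 0.000218, limma) and rose 2.15-fold in brain (1.10 ± 0.28 SE, adjusted p = 0.00493). The difference of these responses, spinal cord minus brain, was -2.84 ± 0.39 SE on the log2 scale (adjusted p = 6.86e-05).

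In differentiated NSCs Wnt7a was 11.3-fold lower in spinal cord than in brain (adjusted p = 2.74e-07). In proliferative NSCs it was at 8.19 ± 0.17 in spinal cord and 8.85 ± 0.23 in brain, a log2 difference of -0.66 that did not pass (adjusted p = 0.0759, 95% interval -1.25 to -0.07), although the arrays did not overlap. That difference passed under 5 of 9 other settings, among them median centring (-0.87, adjusted p = 0.0114) and quantile normalization (-0.75, adjusted p = 0.0206), and without differentiated spinal cord replicate 1 (adjusted p = 0.0043). The dimmer probe set of Wnt7a, 1380958_at, gave 4.97, 3.60 and 3.03 in differentiated and 6.12, 6.73 and 6.65 in proliferative spinal cord NSCs, and 8.90, 9.02 and 8.70 in differentiated and 7.46, 6.86 and 7.27 in proliferative brain NSCs. Its order of groups was the same. Differentiated spinal cord NSCs were dim on it, so the fall there was at least 1.18-fold, and it was not called with dim values set at the 40th percentile (log2 change -0.33, adjusted p = 0.179). Its rise in brain was 3.19-fold (adjusted p = 0.00402).

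Neuronal markers, all 7 of them measured, had summed signals of 2312 to 2872 in differentiated and 8239 to 8865 in proliferative spinal cord NSCs, and 4 of the 7 fell with 0 rises. In brain NSCs the sums were 6815 to 8943 in differentiated and 7626 to 14172 in proliferative cells, with 1 marker up and 4 down. Their part in the Wnt7a result was not tested.

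Wnt5a, the main ligand of the branch that acts without beta-catenin, differed by tissue and did not pass the test between states. It measured 8.26, 8.33 and 8.38 in differentiated and 8.0, 8.84 and 8.17 in proliferative spinal cord NSCs. The brain values were 6.30, 6.87 and 7.04 in differentiated and 6.90, 7.34 and 7.53 in proliferative NSCs, so that every spinal cord array was above every brain array. Wnt5a was 3.00-fold higher in spinal cord among differentiated NSCs (log2 difference 1.58 ± 0.25 SE, adjusted p = 0.000204) and 2.11-fold higher among proliferative ones (1.08 ± 0.25 SE, adjusted p = 0.00452). With differentiation its log2 change was -0.01 in spinal cord (95% interval -0.56 to 0.53, adjusted p = 0.971) and -0.52 in brain (-1.07 to 0.03, adjusted p = 0.112). The change in brain passed after median centring (-0.67, adjusted p = 0.0486) and after quantile normalization (-0.67, adjusted p = 0.0475).

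Among the inhibitors, Sfrp1 and Sfrp2 lay on opposite sides of the tissue contrast. Sfrp1, a Wnt-binding protein made by forebrain radial glia, had signals of 8.76, 9.03 and 8.85 in differentiated and 9.20, 9.74 and 8.99 in proliferative spinal cord NSCs on its brightest probe set, 1371861_at. The brain signals were 10.94, 10.91 and 11.00 in differentiated and 11.86, 11.67 and 12.10 in proliferative NSCs. Every brain array was above every spinal cord array, and the brain states did not overlap. Sfrp1 was 4.20-fold lower in spinal cord among differentiated NSCs (adjusted p = 3.45e-07) and 5.92-fold lower among proliferative NSCs (adjusted p = 9.01e-08). Its other probe sets were lower in spinal cord by 7.62-fold (1383266_at) and 8.11-fold (1382878_at) in the differentiated state, and by 8.85-fold and 4.17-fold in the proliferative state. On 1382878_at the differentiated spinal cord mean, 5.95, lay under the level from which dim groups are measured (6.26), so the 8.11-fold size is not firm.

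With differentiation, Sfrp1 fell 1.90-fold in brain on 1371861_at (log2 change -0.92 ± 0.17 SE, adjusted p = 0.000494) and 1.47-fold on 1383266_at (adjusted p = 0.0369), a call lost without replicate 1 or 3 of either brain group (adjusted p = 0.0665 to 0.178) and with no variance trend (adjusted p = 0.053), while 1382878_at gave -0.03 (adjusted p = 0.958). In spinal cord the log2 changes were -0.43 (adjusted p = 0.0551), -0.34 (adjusted p = 0.204) and -0.99 (adjusted p = 0.0484) on the same probe sets in that order. The first of these passed without proliferative spinal cord replicate 1 or 3 or proliferative brain replicate 3 (adjusted p = 0.014 to 0.05), and under the stricter filter at the 60th percentile (adjusted p = 0.0483). The last call was lost under 7 of 9 other settings and without each of 10 of the 12 arrays, with adjusted p-values up to 0.217. The difference of responses passed for none of the 3 probe sets (log2 0.49, 0.22 and -0.96, adjusted p = 0.114, 0.585 and 0.166, limma). On the brightest one it passed after median centring (0.73, adjusted p = 0.0374) and without proliferative spinal cord replicate 2 (0.71, adjusted p = 0.00849), and on 1382878_at without differentiated spinal cord replicate 2 (-1.48, adjusted p = 0.00768).

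Sfrp2, another Wnt-binding protein, rose in both tissues and was higher in spinal cord in each state. Probe set 1390119_at gave 11.67, 11.55 and 11.58 in differentiated and 9.31, 8.79 and 8.40 in proliferative spinal cord NSCs. In brain NSCs it gave 8.47, 8.55 and 8.74 in differentiated and 6.56, 6.55 and 6.71 in proliferative cells. Differentiated spinal cord NSCs stood above all other arrays and proliferative brain NSCs below them, and the remaining groups overlapped each other.

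The rise of Sfrp2 was 6.81-fold in spinal cord (log2 change 2.77 ± 0.18 SE, adjusted p = 9.49e-08) and 3.95-fold in brain (1.98 ± 0.18 SE, adjusted p = 1.58e-06). The difference between the responses was 0.79 ± 0.26 SE (adjusted p = 0.0263). That call was lost without any of 5 arrays: differentiated spinal cord replicate 1, proliferative spinal cord replicate 3, differentiated brain replicates 1 and 2 and proliferative brain replicate 3 (log2 0.57 to 0.77, adjusted p = 0.052 to 0.061). The other Sfrp2 probe set, 1396614_at, gave 11.21, 11.08 and 10.93 in differentiated and 8.08, 7.53 and 7.59 in proliferative spinal cord NSCs. It gave 6.90, 7.57 and 7.59 in differentiated brain NSCs and was dim in proliferative ones, at 5.67, 5.16 and 4.94. Its rise was 10.1-fold in spinal cord (adjusted p = 1.93e-07) and at least 2.37-fold in brain (adjusted p = 1.06e-05), and the difference of responses was 1.24 ± 0.34 SE (adjusted p = 0.00985). With dim values at the 40th percentile the log2 rise in brain shrank from 2.10 to 1.25, so the difference grew to 2.09. That growth is set by the floor and adds no support.

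Sfrp4, a member of the same family expressed in connective tissue, was read in spinal cord NSCs and was at or near the dim range in brain NSCs. It had 10.87, 10.73 and 10.70 in differentiated and 9.73, 9.44 and 9.35 in proliferative spinal cord NSCs, against 3.42, 5.86 and 4.09 in differentiated and 5.81, 7.01 and 5.89 in proliferative brain NSCs. The tissues did not overlap. Sfrp4 was at least 22.1-fold higher in differentiated spinal cord than in differentiated brain NSCs (adjusted p = 1.71e-07) and 9.67-fold higher in the proliferative state (adjusted p = 0.000123). It passed the filter mainly through spinal cord arrays, so these 2 adjusted p-values add no support. Its rise with differentiation in spinal cord was 2.39-fold (log2 change 1.26 ± 0.48 SE, adjusted p = 0.0488). Without any 1 of the 6 spinal cord arrays the change was between 1.18 and 1.37 and no longer passed (adjusted p = 0.0584 to 0.12), and it also failed without differentiated brain replicate 3 or proliferative brain replicate 1 or 3 (adjusted p = 0.0526 to 0.0564). The call was lost as well with no filter (adjusted p = 0.0632) and with no variance trend (adjusted p = 0.0862), whereas with dim values set at the 40th percentile the adjusted p was 0.000489. In brain the deposited values fell (log2 change -1.78, adjusted p = 0.00737) but the groups overlapped, no fold can be given because differentiated brain NSCs were dim, and with dim values at the 40th percentile the change was -0.07 (adjusted p = 0.827). The difference of responses was 3.04 ± 0.67 SE (adjusted p = 0.00264), and 1.33 with dim values at that percentile (adjusted p = 0.00425).

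Dkk3, a secreted relative of the Dickkopf Wnt inhibitors whose effect on Wnt signalling depends on the cell type, rose in both tissues on its bright probe set, 1370328_at. It had 11.68, 11.56 and 11.36 in differentiated and 9.50, 10.86 and 10.64 in proliferative spinal cord NSCs, and 10.37, 10.33 and 10.39 in differentiated and 8.77, 8.35 and 9.28 in proliferative brain NSCs. Within each tissue the states did not overlap. The rise was 2.30-fold in spinal cord (log2 change 1.20 ± 0.29 SE, adjusted p = 0.00448) and 2.96-fold in brain (1.56 ± 0.29 SE, adjusted p = 0.000557). Proliferative spinal cord replicate 1 was the lowest of its group, and without it the change in spinal cord was 0.78 (adjusted p = 0.0063). Dkk3 was 2.25-fold higher in spinal cord in the differentiated state (adjusted p = 0.00487) and 2.90-fold higher in the proliferative state (adjusted p = 0.000903). The difference of responses was -0.36 (adjusted p = 0.509) with all arrays and -0.78 (adjusted p = 0.0284) without the same replicate. The other tested probe set of Dkk3, 1397754_at, ranged from 3.53 to 6.45 over the arrays and passed in no contrast (adjusted p = 0.198 to 0.983).

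Wif1, a secreted protein with a domain that binds Wnt proteins, passed the filter through 5 spinal cord arrays and 1 brain array. It had 6.51, 6.67 and 6.80 in differentiated and 6.30, 8.09 and 7.46 in proliferative spinal cord NSCs, against 6.13, 5.67 and 5.94 in differentiated and 5.92, 5.50 and 6.0 in proliferative brain NSCs. All spinal cord arrays were above all brain arrays. In the proliferative state Wif1 was 2.78-fold higher in spinal cord (log2 difference 1.48 ± 0.38 SE, adjusted p = 0.00809). Its mean in proliferative brain NSCs, 5.81, lay under the level from which dim groups are measured (6.11), so that size is not firm. With dim values at the 40th percentile the log2 difference was 1.18. Given how Wif1 passed the filter, its adjusted p-values between tissues add no support. In the differentiated state the difference was 0.74 (adjusted p = 0.143). Its change with differentiation was -0.63 in spinal cord (adjusted p = 0.218) and 0.11 in brain (adjusted p = 0.844). The value of 6.30 came from proliferative spinal cord replicate 1. Without that array the fall in spinal cord was called (-1.12, adjusted p = 0.0128), as was the difference of responses (-1.23, adjusted p = 0.032). The tissue difference in the differentiated state was called too (adjusted p = 0.0479), but brain NSCs were dim there, so its size is at least 1.28-fold, and with all arrays and dim values at the 40th percentile it was 0.36 (adjusted p = 0.375).

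The fibroblast and meningeal markers moved with Sfrp2, Sfrp4 and Dkk3 in spinal cord, where 6 of the 8 rose with differentiation and 0 fell. In brain NSCs, 2 of those 8 rose and 2 fell, while Sfrp2 and Dkk3 rose there too. Astrocyte markers, 7 of 7 measured, rose in 6 cases with 0 falls in brain, with summed signals of 88612 to 95660 in differentiated and 26279 to 33216 in proliferative NSCs. In spinal cord 5 rose and 2 fell, at 44652 to 54463 in differentiated and 20261 to 36000 in proliferative NSCs. The 2 that fell were Gfap and S100b. Gja1 was the largest part of the differentiated spinal cord sum, at 14.69 to 15.16 on the log2 scale against 12.56 to 13.24 in proliferative NSCs. The part of these cell types in the changes of the inhibitors was not tested.

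**Figure D3:**
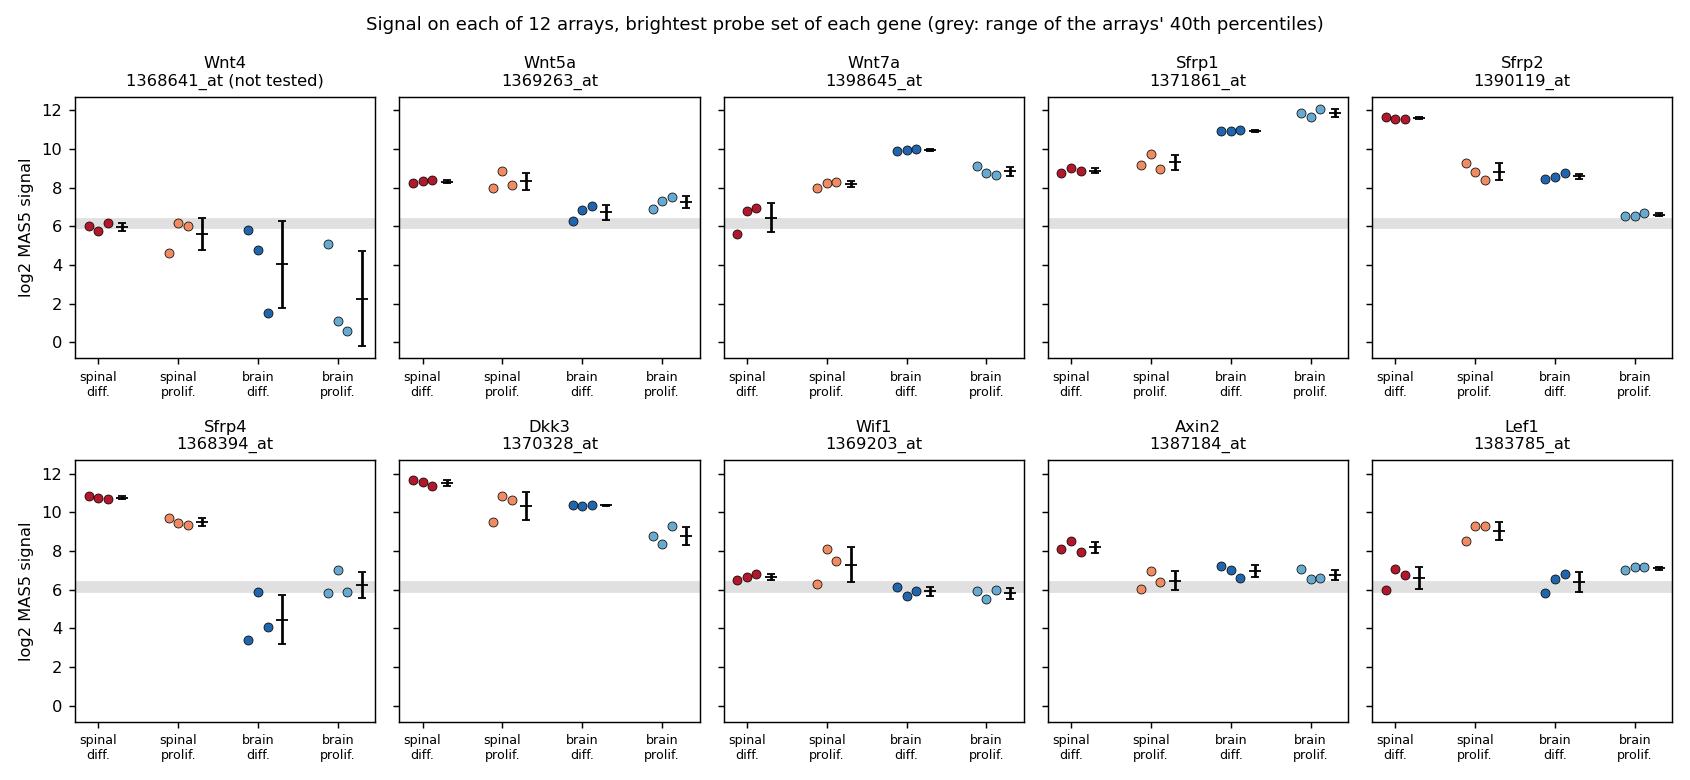
Log2 MAS5 signal on each of the 12 arrays for the brightest probe set of each of the 10 genes, with the mean and SD of each group of 3 beside its points. From left to right each panel shows differentiated and proliferative spinal cord NSCs (reds), then differentiated and proliferative brain NSCs (blues). The grey band is the range of the arrays' 40th percentiles, 5.91 to 6.41, and Wnt4 lies in or below it on every array while Sfrp4 clears it in all 6 spinal cord arrays.

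The targets Axin2 and Lef1 changed in opposite directions in spinal cord. Axin2, a scaffold of the complex that destroys beta-catenin, is itself turned on by canonical Wnt signalling and dampens it. Lef1 is a DNA-binding partner of beta-catenin and is also a target of the pathway. The 250 bases before the start of each gene are shown because TCF/LEF factors bind sites with the core CTTTGA. The sequences are RefSeq's for build GRCr8, read 5' to 3' on the plus strand of chr10:94398535-94398784 for Axin2 and of chr2:222340463-222340712 for Lef1. Capitals mark CTTTGA or its reverse complement TCAAAG.
Axin2: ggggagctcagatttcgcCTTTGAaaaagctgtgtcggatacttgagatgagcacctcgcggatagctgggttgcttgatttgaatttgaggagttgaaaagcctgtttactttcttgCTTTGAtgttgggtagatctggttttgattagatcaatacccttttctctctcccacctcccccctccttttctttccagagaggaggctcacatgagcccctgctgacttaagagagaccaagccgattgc
Lef1: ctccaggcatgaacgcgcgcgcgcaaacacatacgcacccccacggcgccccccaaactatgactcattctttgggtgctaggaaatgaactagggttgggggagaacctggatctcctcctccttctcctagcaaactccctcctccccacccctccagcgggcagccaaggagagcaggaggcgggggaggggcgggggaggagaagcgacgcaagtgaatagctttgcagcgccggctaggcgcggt
The Axin2 window held CTTTGA at 2 places, starting 232 and 132 bases before the gene's start, and the Lef1 window held no match on either strand. Among the 7 member genes with a sequence, Wnt4, Wnt5a, Wnt7a, Sfrp2 and Wif1 also had no match. The same letters occurred on either strand in 13.9% of 33469 windows of this length. A match is a stretch of letters and not evidence of binding.

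Axin2 had 8.13, 8.50 and 7.96 in differentiated and 6.02, 6.97 and 6.42 in proliferative spinal cord NSCs. In brain NSCs it had 7.25, 7.04 and 6.61 in differentiated and 7.07, 6.58 and 6.62 in proliferative cells. Differentiated spinal cord NSCs were above every other array, and the remaining 3 groups overlapped. Axin2 rose 3.31-fold with differentiation in spinal cord (log2 change 1.73 ± 0.28 SE, adjusted p = 0.000239) and had a change of 0.21 in brain (95% interval -0.39 to 0.81, adjusted p = 0.571). The responses differed by 1.52 ± 0.39 SE (adjusted p = 0.00716). In the differentiated state Axin2 was 2.35-fold higher in spinal cord than in brain (adjusted p = 0.00278). The proliferative states gave a log2 difference of -0.29 (95% interval -0.89 to 0.31, adjusted p = 0.454). When each array was left out in turn, the rise in spinal cord stayed between 1.5 and 1.98 and passed each time (adjusted p up to 0.002).

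Lef1 on probe set 1383785_at had 6.0, 7.09 and 6.77 in differentiated and 8.52, 9.32 and 9.29 in proliferative spinal cord NSCs. The brain values were 5.84, 6.54 and 6.81 in differentiated and 7.0, 7.17 and 7.15 in proliferative NSCs. Proliferative spinal cord NSCs were above all other arrays. Lef1 fell 5.37-fold in spinal cord (log2 change -2.42 ± 0.32 SE, adjusted p = 4.58e-05). In brain the change was -0.71 (95% interval -1.40 to -0.02, adjusted p = 0.0847), with no overlap between the states, and it passed after median centring (-0.86, adjusted p = 0.0303) and after quantile normalization (-0.87, adjusted p = 0.0283). The responses differed by -1.71 ± 0.45 SE (adjusted p = 0.00819). In the proliferative state Lef1 was 3.83-fold higher in spinal cord (adjusted p = 0.000353), and in the differentiated state the difference was 0.22 (adjusted p = 0.615). The untested probe set 1370138_at of Lef1 had 4.80, 2.63 and 1.81 in differentiated and 6.39, 7.72 and 7.78 in proliferative spinal cord NSCs, and at most 2.25 and 5.29 in differentiated and proliferative brain NSCs.

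Endothelial cells also express Lef1. Of 4 endothelial markers measured Pecam1, Tek and Cldn5 were dim in all 4 groups. The fourth, the VEGF receptor Kdr, moved with Lef1 in spinal cord, at 4.82, 3.80 and 4.01 in differentiated and 6.26, 6.55 and 5.98 in proliferative NSCs, and was called lower there. Kdr was dim in the differentiated spinal cord NSCs, and of the proliferative spinal cord arrays only replicate 2 lay above its 40th percentile. In brain NSCs Kdr had 4.74, 5.92 and 6.94 in differentiated and 5.81, 5.62 and 6.4 in proliferative cells and was not called. Oligodendrocyte precursor markers, all 5 measured, moved with Lef1 in spinal cord, where 4 fell and 1 rose, with sums of 15084 to 17063 in differentiated and 20346 to 23540 in proliferative NSCs. In the proliferative state 4 of the 5 were higher in spinal cord than in brain, where the sum was 6694 to 7793. In brain 4 of them rose with differentiation, to 15313 to 15772. Their part in the Lef1 result was not tested.

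Of 99 other genes of the Wnt pathway listed by role, 76 were on the array with 1 symbol and 64 were tested, each by its brightest probe set. With differentiation in spinal cord 22 rose and 17 fell, where 20.9% of the 11218 genes tested rose and 22.6% fell, and the medians were 0.17 for the list and -0.04 for all genes. In brain 20 rose and 17 fell, against 24.1% and 28.5%, with medians of 0.05 and -0.06. In differentiated NSCs 22 were higher and 18 lower in spinal cord than in brain, against 22.3% and 22.4%, and in proliferative NSCs 18 were higher and 15 lower, against 21.2% and 22.8%. With each array centred on its median the proliferative contrast had 14 higher and 25 lower, brain differentiation 17 up and 22 down, and spinal cord differentiation 21 up and 11 down. Centring moved all probe sets as well. Of all calls over all probe sets tested, 31.7%, 38.2% and 52.3% were then higher, in the same order. As deposited these shares were 51.2%, 50.6% and 45.3%. The response was higher in spinal cord for 18 genes and lower for 14, against 23.7% and 21.2%. By the medians the 2 tissue contrasts gave 0.25 and -0.12 for the list and -0.0038 and -0.04 for all genes in the differentiated and proliferative state.

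**Figure D4:**
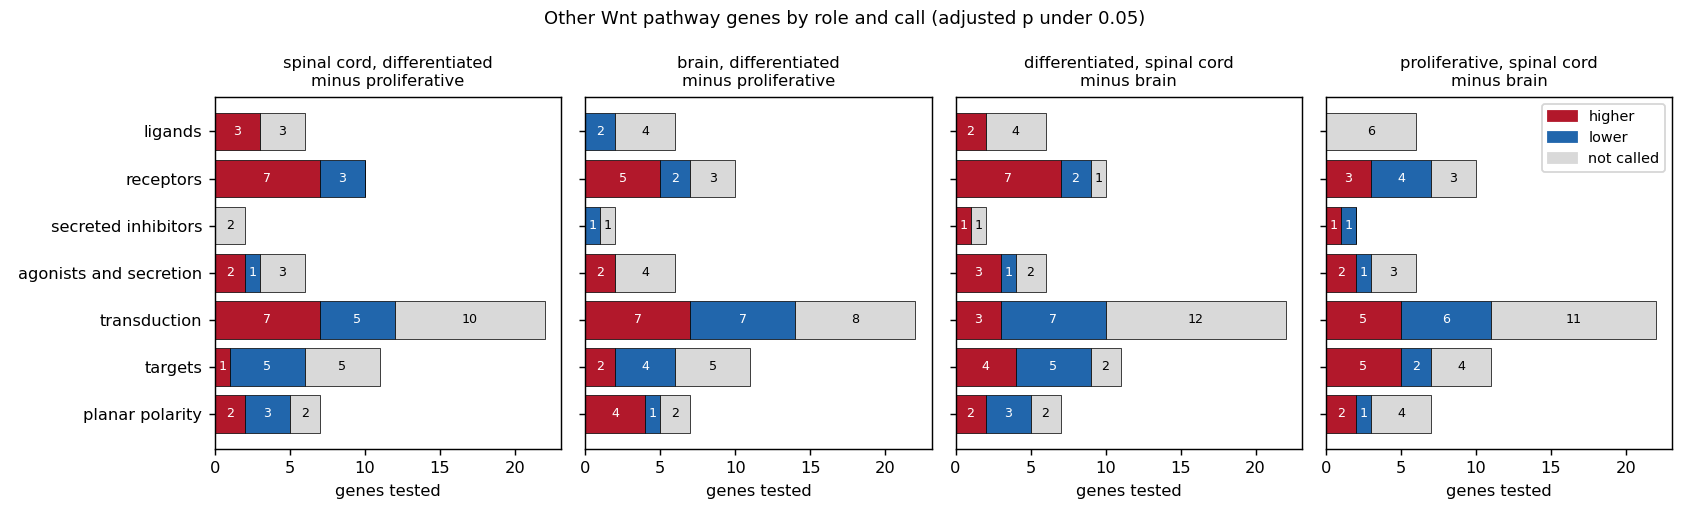
Number of the 64 other Wnt pathway genes tested that were called higher (red), lower (blue) or not called (grey), by role, in the 4 contrasts of pairs of groups. Receptors had 7 rises and 3 falls among 10 genes with differentiation in spinal cord, and 5 and 2 in brain. Over all genes tested 20.9% rose and 22.6% fell in spinal cord, and 24.1% and 28.5% in brain.

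Of 10 receptors 7 rose and 3 fell in spinal cord, and 5 rose and 2 fell in brain. Over all genes tested 20.9% rose and 22.6% fell in spinal cord, and 24.1% rose and 28.5% fell in brain. Fzd2, a Frizzled receptor, was at 10.65 ± 0.12 in differentiated and 7.87 ± 0.11 in proliferative spinal cord NSCs, a 6.85-fold rise (adjusted p = 1.98e-07). In brain it was at 9.77 ± 0.07 in differentiated and 8.52 ± 0.53 in proliferative NSCs, a 2.38-fold rise (adjusted p = 0.000183). Fzd1 rose 3.62-fold in brain (adjusted p = 0.000283) and was 4.01-fold higher in proliferative spinal cord than in proliferative brain NSCs (adjusted p = 0.000225). In spinal cord Fzd1 was at 12.31 ± 0.13 in differentiated and 10.85 ± 0.87 in proliferative NSCs. Fzd6 rose 5.36-fold in spinal cord (adjusted p = 9.48e-06) and fell 2.06-fold in brain (adjusted p = 0.00567). Its response in spinal cord exceeded that in brain by 3.46 ± 0.38 SE on the log2 scale (adjusted p = 8.87e-06). The lower group of each change was not dim, but its mean lay under the level from which dim groups are measured. Those means were 6.14 in proliferative spinal cord NSCs (level 6.36) and 6.20 in differentiated brain NSCs (level 6.30). The sizes of both changes and of their difference are therefore not firm. Ptk7, a co-receptor of the planar polarity branch, was at 12.29 ± 0.02 in differentiated spinal cord and 10.28 ± 0.12 in differentiated brain NSCs, 4.01-fold higher in spinal cord (adjusted p = 4.47e-09).

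Of 6 other ligands tested, 3 rose in spinal cord and 2 fell in brain, where 20.9% and 28.5% of all genes tested did so. Wnt16 was at 9.04 ± 0.13 in differentiated spinal cord NSCs and dim in the other 3 groups, so its rise there was at least 6.42-fold. It passed the filter only through the group where it was high, so its adjusted p of 0.00177 adds no support. Wnt6 rose 3.66-fold in spinal cord (adjusted p = 5.54e-05). Its mean in proliferative spinal cord NSCs, 6.29, lay under the level from which dim groups are measured (6.36), so that size is not firm. Wls, which carries Wnt proteins to the cell surface, rose 2.10-fold in spinal cord (adjusted p = 0.000137) and 1.66-fold in brain (adjusted p = 0.00208), and was 5.73-fold higher in differentiated and 4.52-fold higher in proliferative spinal cord than in the brain NSCs of the same state (adjusted p = 3.65e-08 and 2.67e-07). Lgr4, a receptor for the R-spondins that strengthen Wnt signals, rose 4.25-fold in spinal cord and 1.95-fold in brain (adjusted p = 6.65e-06 and 0.00274).

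Other listed targets and TCF factors did not share 1 direction with Axin2 or with Lef1. Of 11 targets 1 rose and 5 fell in spinal cord, and 2 rose and 4 fell in brain. The shares over all genes tested were 20.9% and 22.6% in spinal cord, and 24.1% and 28.5% in brain. Tcf7, a TCF factor that is also a target, rose 2.80-fold in spinal cord (adjusted p = 0.000362), and its response exceeded that in brain by 2.56 ± 0.36 SE (adjusted p = 7.39e-05). It was at 8.28 ± 0.23 in differentiated and 6.80 ± 0.53 in proliferative spinal cord NSCs, and at 6.81 ± 0.24 in differentiated and 7.88 ± 0.14 in proliferative brain NSCs. Ccnd1, cyclin D1, fell 2.72-fold in spinal cord (adjusted p = 1.14e-07), and Cd44, a hyaluronan receptor, fell 2.99-fold in brain (adjusted p = 1.75e-07). Both were lower after differentiation in the other tissue too. Ccnd1 was at 12.64 ± 0.16 in differentiated and 13.91 ± 0.05 in proliferative brain NSCs, and Cd44 at 10.97 ± 0.13 and 12.11 ± 0.21 in the corresponding spinal cord NSCs. Lgr5, an R-spondin receptor that marks stem cells of the gut, rose at least 1.59-fold in brain, where proliferative NSCs were dim. It passed the filter mainly through the differentiated brain arrays, where it was high, so its adjusted p of 0.00142 adds no support. Ccn4, a matricellular protein, was at least 3.28-fold higher in proliferative spinal cord than in proliferative brain NSCs, which were dim. Both brain groups were dim, so Ccn4 entered the test through spinal cord arrays alone and its adjusted p of 9.12e-05 adds no support.

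Among transduction genes, Tcf7l2, the TCF factor that oligodendrocytes use during maturation, was at 12.12 ± 0.11 in differentiated and 10.35 ± 0.18 in proliferative brain NSCs, a 3.40-fold rise (adjusted p = 1.23e-08). Mature oligodendrocyte markers moved with it in brain: all 5 measured rose, with sums of 35652 to 44421 in differentiated and 2764 to 4942 in proliferative NSCs. In spinal cord Tcf7l2 was at 11.61 ± 0.04 in differentiated and 11.28 ± 0.02 in proliferative NSCs. There 0 of the 5 markers rose and 1 fell, with sums of 34286 to 40395 in differentiated and 34220 to 37082 in proliferative NSCs. The part of these markers' cells in the Tcf7l2 result was not tested. Csnk1e, casein kinase 1 epsilon, fell 3.07-fold in spinal cord (adjusted p = 3.82e-06) and 2.32-fold in brain (adjusted p = 3.66e-05). Apc2, a neuronal relative of the tumour suppressor Apc, was 3.06-fold lower in differentiated spinal cord than in differentiated brain NSCs (adjusted p = 1.9e-06). In the planar polarity group, Prickle1 rose 4.05-fold in brain (adjusted p = 4.44e-08). In spinal cord it was at 11.07 ± 0.04 in differentiated and 10.18 ± 0.08 in proliferative NSCs. Celsr3, a cadherin of axon guidance, was at least 3.85-fold lower in differentiated spinal cord than in differentiated brain NSCs (adjusted p = 1.07e-06).

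The genes whose pattern was nearest to each member were found by the root mean square difference of log2 values over the 12 arrays, after each probe set's own mean was subtracted. For Wnt7a they were Scn3b, a sodium channel subunit, and Sybu (differences of 0.29 and 0.35), and for Wnt5a Tnfaip8 and Nt5e (0.25 and 0.28). For Sfrp1 they were Crip2 and Hey1, a Notch target (0.29 and 0.34). Sfrp2 had Irak3 and Mylk, myosin light chain kinase, as its nearest (0.27 and 0.31), and Dkk3 had Lrp1, a lipoprotein receptor, and Rora (0.14 and 0.19). Sfrp4 had no gene closer than 0.74, that of Medag, and Fcgr2b followed at 0.82. For Wif1 they were Igsf3 and Snai1 (0.30 and 0.30). For Axin2 they were Serpinh1, the collagen chaperone, and Gpx8 (0.25 and 0.26), and for Lef1 Gpr83 and Qpct (0.41 and 0.42). These are the closest of 11217 genes and carry no test.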

How the data were processed

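Per the labels' protocols, total RNA was isolated with TRIZOL, column-purified with a DNase step and turned into biotin-labelled cRNA. The value deposited for each probe set is a log2 signal, and the submitters' processing notes name MAS5 and affy with no version. The linear mean of each array, with 2% trimmed at both ends, was 500, so each array had been scaled on its own. Controls (57 probe sets) were left out. The platform annotation named 1 gene for 20826 probe sets, more than 1 for 436 and no gene for 9780, and 20758 matched a current gene by Entrez ID. Contrasts came from 1 model with a mean per group (limma 3.58.1 in R 4.3.3, lmFit, then eBayes fitting the variance to the mean level, with 8 degrees of freedom left), tested on simulated data. Adjustment was Benjamini-Hochberg over all probe sets tested. Figures were drawn in Python 3.11.15. Members and lists were chosen with earlier results of these data known. Named were all members, the 2 called genes of largest change per role and contrast of the other pathway genes (a selection of them is printed), and the 2 nearest genes per member. Alternatives were the scaling, a pseudocount of 64, dim values, the filter, the variance trend, 2 groups only, a replicate block, the second brightest probe set and each array left out. Neither scanner files nor detection calls entered. The number of arrays limits the precision.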

Additional observations from a re-analysis of the deposited data

Results flagged for a closer look

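For 7 of the 14 tested probe sets, read from 5 genes, the differentiation response differed between spinal cord and brain by limma's test of the difference itself. It was higher in spinal cord for 28.6% and lower for 21.4%, against 18.8% and 21.7% of all probe sets tested, so the lower share was near that of all probe sets. On the log2 scale, spinal cord minus brain, the difference was -2.84 for Wnt7a on 1398645_at and -4.30 on 1380958_at, which was dim in differentiated spinal cord NSCs. With dim values at the 40th percentile the second of these was -2.01. It was -1.71 for Lef1. It was 0.79 and 1.24 for Sfrp2 on 1390119_at and 1396614_at, 3.04 for Sfrp4 and 1.52 for Axin2. The call on 1390119_at was lost without some single arrays. With dim values at the 40th percentile the value on 1396614_at was 2.09, because the floor shortens the rise in brain, and that of Sfrp4 was 1.33. For Wnt7a the single responses had opposite signs, for Sfrp2 both were rises of unequal size, and for Axin2 and Lef1 the response passed the test in spinal cord and not in brain. For Sfrp4 the response in brain rested on dim values.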

How the results depend on the processing

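Total calls, higher plus lower, of member probe sets, pathway genes and all probe sets stayed within 1.5 times their value under every alternative run. Counts by direction could move further, as the lower pathway genes of the proliferative tissue contrast did after median centring. For member probe sets the 9, 8, 11, 10 and 7 calls (spinal cord and brain differentiation, differentiated and proliferative tissue contrast, difference of responses) ranged over 7 to 9, 7 to 10, 10 to 11, 9 to 12 and 6 to 8 under other settings, and over 7 to 9, 7 to 8, 11 to 12, 10 to 11 and 6 to 9 with an array left out. Of 70 changes of member probe sets, 17 gained or lost a call under some alternative and none that was called in either fit changed sign. Sign changes of uncalled values, 21 in all, belonged to 7 results of at most 0.60 in size. Same-numbered arrays did not deviate together across probe sets in the pairs of groups compared (r = -0.08 to 0.05). A weak shared source, or one that touches few genes, would not show in such a correlation, so whether the numbers pair arrays is not known. With the replicate block the counts of members called were 9, 8, 11, 10 and 7, but in brain differentiation Sfrp1 1383266_at no longer passed (adjusted p = 0.0579) and Lef1 1383785_at did (adjusted p = 0.0223), and all probe sets called were 7971 and 9415 for spinal cord and brain differentiation. Median centring put the median of all probe sets at -0.15 in brain differentiation (0.0038 as deposited), at -0.22 in the proliferative tissue contrast (-0.02) and at 0.19 for the difference of responses (-0.04). The share of higher among all calls was then 38.2% (50.6% as deposited), 31.7% (51.2%) and 61.3% (46.4%), while the members' calls were 5 higher and 5 lower, 7 and 4, and 5 and 3. The cause was not tested. The fit to 2 groups alone was not run for the difference of responses, which needs all 4. Signals near the 40th percentile limit Wnt4, Wif1, Sfrp4 in brain and Dkk3 1397754_at. They also limit the sizes given for Fzd6, Wnt6 and Sfrp1 1382878_at.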
